A study of Mus musculus with 30 samples.

Results

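The comparison asks for which genes the mRNA difference between mice fed fructose and mice fed dextrose (the D form of glucose) was unlike in liver and duodenum. For each gene the fructose-dextrose gap, the log2 fold change of fructose over dextrose, was taken in liver and in duodenum, and the duodenum gap was subtracted from the liver gap. A positive tissue difference is therefore a liver gap above the duodenum gap, and a negative one a liver gap below it. The difference is signed and does not say in which tissue the gap was larger in size. All 20 libraries on these 2 diets entered, of 30 libraries in the series, with 5 each from duodenum on fructose, duodenum on dextrose, liver on fructose and liver on dextrose. The libraries of the corn starch control diet were left out. All mice were labelled C57BL/6, and no genotype, age, sugar dose or feeding time is given in the labels. The libraries were made from poly-A RNA of whole tissue, where fewer cells of a type and less RNA per cell cannot be told apart. No label says whether libraries of a group are separate mice, and what the p-values reflect is spread between libraries, which may be technical.

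Fructose and glucose reach the duodenum first. Fructose enters enterocytes through the transporter encoded by Slc2a5 and is phosphorylated by ketohexokinase (Khk), and in a later step triokinase (Tkfc) helps bring its carbon into the common path of glycolysis and gluconeogenesis. What the gut does not use passes through the portal vein to the liver, which handles fructose with the same enzymes and is the main site of fatty acid synthesis from sugar. In both tissues the transcription factors encoded by Mlxipl (ChREBP) and Srebf1 (SREBP-1c) are known regulators of genes of sugar use and lipid synthesis.

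Total counts per library ran from 14530137 to 19850935. Levels below are CPM, read counts taken relative to the total count of the library and scaled by TMM factors over the 20 libraries, called scaled CPM. Enterocyte markers in duodenum summed to 25100 to 31300 CPM with fructose and 26700 to 31200 CPM with dextrose, and in liver to 628 to 947 CPM with fructose and 303 to 464 CPM with dextrose, apart from 1410 CPM in the library liver dextrose 5. Apoa4, Anpep and Fabp2 made up most of the liver sum, and the other 7 of the 10 markers had at most 2.04 scaled CPM each in liver. Hepatocyte markers summed to 81000 to 96400 CPM in liver and to 272 to 568 CPM in duodenum, so both tissue labels held in all 20 libraries. Liver dextrose 5 stood apart from its group. Its cell cycle markers summed to 410 CPM, against 52.7 to 61.6 in the other liver dextrose libraries and 54.6 to 70.4 on fructose. Its pancreatic acinar markers summed to 1600 CPM against 47.8 to 248, its stellate and fibroblast markers to 884 against 180 to 259, and its myeloid and Kupffer markers to 913 against 308 to 374. Its hepatocyte markers summed to 92500 CPM against 81000 to 93500. Its correlation with the other libraries of the group, on log2 CPM, was 0.935 to 0.944, against 0.978 to 0.989 among those. In duodenum the acinar markers summed to 102 CPM in fructose 3 against 18.5 to 42.1 in the other fructose libraries. Counts of calls are therefore given with and without liver dextrose 5, and so are the values of many single genes. The part of these markers in the results was not tested.

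**Figure D1:**
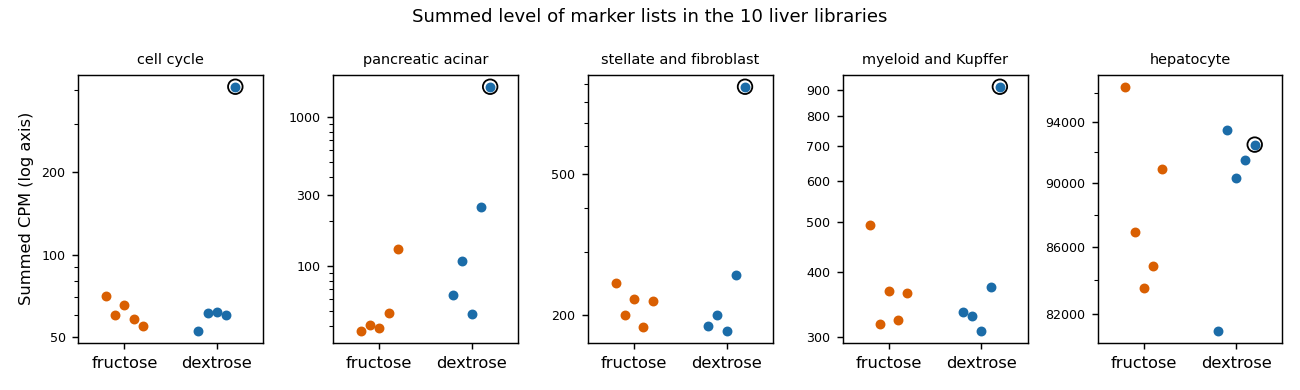
Summed CPM (log axes) of 5 marker lists in the 5 liver fructose and 5 liver dextrose libraries, 1 point per library, with liver dextrose 5 circled. The circled library has 410 CPM of cell cycle markers and 1600 CPM of acinar markers, above every other liver library, while its hepatocyte markers lie within the range of the others.

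The gap differed between the tissues for 178 of 14843 genes tested (1.2%), by edgeR's quasi-likelihood test with Benjamini-Hochberg adjusted p under 0.05. The liver gap was the higher for 64 genes (0.431%) and the lower for 114 (0.768%). At an unadjusted p under 0.05 there were 1904 genes. Without liver dextrose 5 the count was 364 of 14991 (2.43%), 111 higher (0.74%) and 253 lower (1.69%), and it held 171 of the 178. Without liver fructose 3 the count was 116, 35 higher and 81 lower. Of the 178 genes, 156 had a mean of at least 1 CPM in both tissues, 7 only in duodenum, 13 only in liver and 2 in neither. Of all 14843 genes tested, 10803, 1591, 1413 and 1036 fell in these classes.

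With all 20 libraries, most of the called genes were genes whose gap was called in duodenum. The gap itself was called in duodenum only for 108 of the 178, in liver only for 40, in both tissues with opposite signs for 4 and in neither for 26. It was called in both tissues with the same sign for 0 of the 178. The estimated gaps, called or not, had opposite signs for 150 of the 178, and the duodenum gap was the larger in size for 122. Among the 114 genes with the lower liver gap, 84 had their gap called in duodenum only and 10 in liver only. Among the 64 with the higher liver gap, 24 had it called in duodenum only and 30 in liver only. On leaving out liver dextrose 5 the gap was called in duodenum only for 184 of the 364 and in liver only for 109, in both tissues with opposite signs for 14, in both with the same sign for 3 and in neither for 54. Of the 253 genes with the lower liver gap in that fit, 148 had their gap called in duodenum only and 53 in liver only, and of the 111 with the higher one 36 and 56. A gap called in 1 tissue and not in the other is not by itself a tissue difference; the counts here are for genes whose difference was itself past the threshold.

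With all 20 libraries each gap on its own was called for more genes than the difference. In duodenum 409 genes were called (2.76%), 267 higher on fructose (1.8%) and 142 lower (0.957%). In liver 217 were called (1.46%), 147 higher (0.99%) and 70 lower (0.472%). Without liver dextrose 5 the liver count was 532 (3.55%), 262 higher (1.75%) and 270 lower (1.8%), and the duodenum count 732 (4.88%), 489 higher (3.26%) and 243 lower (1.62%). The duodenum libraries are the same in both fits; each gene has 1 estimate of spread over all groups in a fit. The liver count was also 71 without liver fructose 2, 80 without liver fructose 3 and 92 without liver dextrose 2, and in those fits the tissue difference was called for more genes than the liver gap, 122, 116 and 132. Across the 10803 genes with at least 1 CPM in both tissues, the liver and duodenum gaps had a Pearson correlation of 0.05 and a Spearman correlation of 0.129, given as a description over genes that share libraries. Leaving out liver dextrose 5, they were 0.115 and 0.137. The median tissue difference over all genes tested was -0.03.

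**Figure D2:**
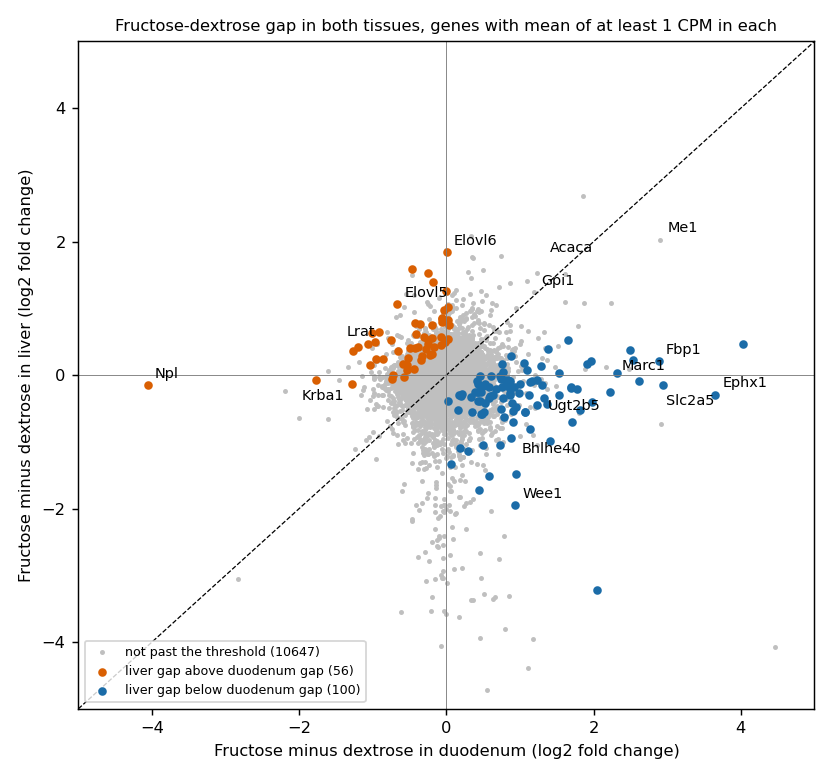
Fructose minus dextrose in liver (y axis, log2 fold change) against the same in duodenum (x axis, log2 fold change) for 10803 genes, with 156 called genes coloured by direction and the dashed line marking equal gaps. Called genes lie mostly along the duodenum axis, such as Fbp1 and Ephx1 on the right and Npl on the left, and Gpi1, Acaca and Me1 lie near the dashed line and are not called.

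Among genes of fructose entry and breakdown, Slc2a5, Aldh2 and Gpd1 rose on fructose in duodenum and had a lower gap in liver. Of 14 genes of the list tested, these 3 had a lower liver gap and 0 a higher one, against 0.768% lower over all genes. The list median of the tissue difference was -0.54, and without liver dextrose 5 it was -0.39 with 5 genes lower. In duodenum 6 of the 14 genes rose on fructose (1.8% over all genes) and in liver 2 did (0.99%).

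Slc2a5 (ENSMUSG00000028976), which carries fructose across the brush border, had 2066, 2543, 2390, 2527 and 2071 scaled CPM in the duodenum fructose libraries and 351, 399.7, 208, 339 and 218 in the duodenum dextrose libraries. Liver levels were 6.83, 9.33, 8.79, 5.64 and 14.8 on fructose and 13.2, 15.1, 4.89, 15.7 and 1.66 on dextrose, where the diets overlap. All 5 duodenum fructose libraries lay above all 5 dextrose libraries. The duodenum gap was 2.94 ± 0.40 (log2 ± SE, n = 5 per group), the liver gap -0.14 ± 0.41, and the tissue difference -3.08 ± 0.56 (edgeR adjusted p = 0.00747). Without liver dextrose 5, which had the 1.66, the liver gap was -0.45 and the tissue difference -3.40 ± 0.39 (edgeR adjusted p = 4.55e-05). Aldh2 (ENSMUSG00000029455), a mitochondrial aldehyde dehydrogenase, had 586 to 686 scaled CPM on fructose and 284 to 348 on dextrose in duodenum. The liver libraries had 2438 to 3049 on fructose and 1565 to 2775 on dextrose, the lowest being liver dextrose 5. Its tissue difference was -0.88 ± 0.19 (edgeR adjusted p = 0.0183), and -1.04 ± 0.14 without liver dextrose 5 (adjusted p = 0.000156). Gpd1, which makes glycerol-3-phosphate from a glycolytic intermediate, had 1098 to 1330 scaled CPM on fructose and 579.6 to 813 on dextrose in duodenum, and 239.9 to 401 on fructose and 202 to 365 on dextrose in liver. It had a duodenum gap of 0.87 ± 0.16 and a liver gap of -0.09 ± 0.16. Its tissue difference of -0.95 ± 0.22 was called by edgeR at an adjusted p of 0.0377, which was 0.0537 to 0.0833 on leaving out any 1 of 16 single libraries. The difference was -1.12 ± 0.18 without liver dextrose 5 (adjusted p = 0.00118).

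Khk and Tkfc, the kinases of the pathway, each had a gap called in 1 tissue with all 20 libraries, Khk in liver and Tkfc in duodenum. Khk (ENSMUSG00000029162) had 2040, 2406, 2089, 2519 and 2091 scaled CPM on fructose and 1572, 1483, 1256, 1500 and 1188 on dextrose in duodenum, and 1334, 1358, 1130, 1293 and 1194 on fructose and 757, 674, 651, 737 and 238 on dextrose in liver, where the value of 238 is liver dextrose 5. Its gap was 1.04 ± 0.21 in liver (edgeR adjusted p = 0.0127) and 0.67 ± 0.20 in duodenum (adjusted p = 0.0932), and the difference was 0.37 ± 0.29 (adjusted p = 0.636), or 0.13 ± 0.15 without liver dextrose 5. In that fit the gap of Khk was called in both tissues, at 0.69 ± 0.10 in duodenum (edgeR adjusted p = 0.000163) and 0.82 ± 0.11 in liver (adjusted p = 0.000186). Tkfc (ENSMUSG00000034371) had 2485 to 3495 scaled CPM on fructose and 1122 to 1309 on dextrose in duodenum, with no overlap, and 583 to 837 on fructose and 274 to 612 on dextrose in liver. It had a duodenum gap of 1.32 ± 0.17 and a liver gap of 0.65 ± 0.17. Its tissue difference of -0.68 ± 0.23 (edgeR adjusted p = 0.208) was called without liver dextrose 5, at -0.85 ± 0.19 (adjusted p = 0.0177).

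With all 20 libraries the smallest p of the whole comparison belonged to Fbp1, a gene of gluconeogenesis on the reverse strand of chromosome 13. Fbp1 (ENSMUSG00000069805) encodes fructose bisphosphatase, which turns the doubly phosphorylated fructose of glycolysis back toward glucose. It had 856, 1119, 978, 1089 and 940 scaled CPM in the duodenum fructose libraries and 165, 130.1, 131, 131 and 117 in the duodenum dextrose libraries, with no overlap. In liver it had 1478, 1380, 1352, 1326 and 1337 on fructose and 1021, 1123, 1104, 1195 and 1484 on dextrose, which overlap through liver dextrose 5. The duodenum range on fructose overlapped the liver range on dextrose, and the duodenum level on dextrose was lower than in every liver library. The duodenum gap was 2.89 ± 0.12, the liver gap 0.21 ± 0.12 and the tissue difference -2.67 ± 0.17 (edgeR adjusted p = 7.04e-09). With liver dextrose 5 left out it was -2.62 ± 0.15 (adjusted p = 2.26e-10), where Ephx1 had a smaller adjusted p (1.75e-10), and over leaving out each library in turn -2.76 to -2.62. The other 13 genes of the gluconeogenesis list were not called, and the list median was 0.08. Among them G6pc, glucose-6-phosphatase, had a duodenum gap of 1.48 ± 0.31 (edgeR adjusted p = 0.0101), a liver gap of 0.12 ± 0.30 and a tissue difference of -1.36 ± 0.43 (adjusted p = 0.164).

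Because Fbp1 gave the smallest p with all libraries, its promoter window is shown, from 250 bases before to 50 after the annotated start, as given by RefSeq for GRCm38.p6 at chr13:62888233-62888532 on the reverse strand. Capitals mark a match to TGACNNNGC, the core of the antioxidant response element, read on the other strand, 56 bases before the start. Both strands of 32851 promoter windows were searched, and 12.4% held this motif, as did 6 of the 30 named genes past the threshold that have a window.
Fbp1: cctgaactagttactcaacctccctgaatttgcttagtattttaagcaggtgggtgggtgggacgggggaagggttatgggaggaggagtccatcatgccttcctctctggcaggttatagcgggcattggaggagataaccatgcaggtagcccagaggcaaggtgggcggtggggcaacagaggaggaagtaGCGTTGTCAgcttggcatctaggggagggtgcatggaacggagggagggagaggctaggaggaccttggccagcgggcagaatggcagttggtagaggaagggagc

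In glycolysis Pfkl was the called gene, with 1 of 23 genes lower (0.768% over all genes) and 0 higher, and a list median of -0.23. There were 2 lower without liver dextrose 5, and the median was then -0.08. In duodenum 7 of the 23 rose on fructose (1.8% over all genes), and in liver Gpi1, Eno1 and Pgk1 did, 3 of the 23 (0.99%). Pfkl (ENSMUSG00000020277), the liver type of phosphofructokinase, had 108, 126, 109.8, 101 and 102 scaled CPM on fructose and 44.9, 43.9, 60, 46.5 and 61.9 on dextrose in duodenum. Liver levels were 49.9 to 62.2 on fructose and 41.3 to 60.3 on dextrose, which overlap. The tissue difference was -1.02 ± 0.17 (edgeR adjusted p = 0.0029). When liver dextrose 5 was left out, Ldha, lactate dehydrogenase A, was also called (edgeR adjusted p = 0.0297, against 0.0529 with all libraries).

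Some genes had a gap in both tissues. With all libraries 20 genes had a gap called in each, 14 higher on fructose in both, 2 lower in both and 4 with opposite signs; without liver dextrose 5 there were 54, of which 31 were higher in both, 9 lower in both and 14 of opposite sign. Gpi1 (ENSMUSG00000036427), glucose-6-phosphate isomerase, had 1827, 2105, 1898, 1921 and 1848 scaled CPM on fructose and 936, 869, 783, 849.8 and 785 on dextrose in duodenum. The liver libraries had 519.5, 473, 359, 373 and 295 on fructose and 172, 171, 162, 187 and 164 on dextrose, and the diets were apart in both tissues. It rose by 1.18 ± 0.12 in duodenum and 1.24 ± 0.13 in liver, and the difference of 0.06 ± 0.17 had a 95% interval of -0.308 to 0.418. Eno1, an enolase, rose by 0.71 ± 0.12 and 0.64 ± 0.12, and its difference had an interval of -0.418 to 0.281. Me1 (ENSMUSG00000032418), the cytosolic malic enzyme that supplies NADPH for lipid synthesis, had 36.6, 35.8, 37.4, 22 and 35.3 scaled CPM on fructose and 8.54, 5.23, 2.06, 2.57 and 4.11 on dextrose in duodenum, and 1023, 980.4, 800.5, 499.8 and 399 on fructose and 142, 184, 201, 277 and 102 on dextrose in liver, with no overlap in either. It rose by 2.90 ± 0.37 and 2.03 ± 0.33, with a difference of -0.87 ± 0.48 (edgeR adjusted p = 0.465) and an interval of -1.87 to 0.124. These intervals, unadjusted and wide for Me1, do not show equal gaps.

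**Figure D3:**
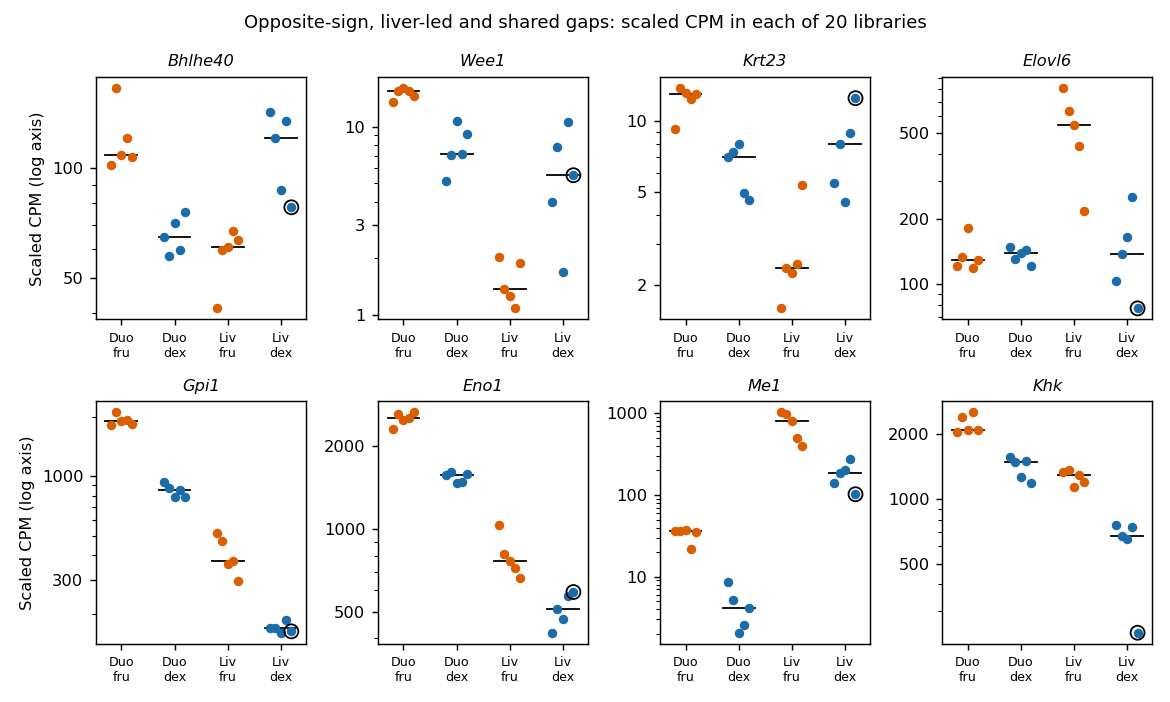
Scaled CPM (log axes) of 8 genes in each of the 20 libraries, by tissue (Duo, duodenum; Liv, liver) and diet (fru, fructose; dex, dextrose), with group medians as lines and liver dextrose 5 circled. In Gpi1, Eno1, Me1 and Khk fructose lies above dextrose in both tissues, the Elovl6 median is higher on fructose in liver, and the medians of Bhlhe40, Wee1 and Krt23 are higher on fructose in duodenum and lower in liver.

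Enzymes that conjugate or hydrolyse drugs, steroids and lipid peroxidation products held the most called genes of the 28 lists, and were also the longest list. Of 34 genes tested, 7 had a lower liver gap and 0 a higher one, against 0.768% lower over all genes, and the list median was -0.42. The fructose list, with 3 of 14, had about the same share. In duodenum 11 of the 34 rose on fructose (1.8% over all genes), and in liver 2 rose and 1 fell (0.99% and 0.472%). With liver dextrose 5 left out the counts were 11 lower and 0 higher. The summed hepatocyte markers of the duodenum libraries overlapped between the diets, at 272 to 568 CPM with fructose and 301 to 490 with dextrose. The median duodenum gap of the 10 hepatocyte markers was 0.32, with 0 called. The part of hepatocyte markers in these results was not tested.

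Ephx1 (ENSMUSG00000038776), microsomal epoxide hydrolase, had 168, 141, 169, 179.7 and 160.4 scaled CPM on fructose and 13.7, 12.1, 15.4, 9.56 and 14.3 on dextrose in duodenum, with no overlap. In liver the levels were 212, 191, 165, 195 and 253 on fructose and 169, 191, 189.5, 154 and 541 on dextrose, where the last value, liver dextrose 5, lies above all others. The tissue difference was -3.95 ± 0.38 (edgeR adjusted p = 1.1e-05), and -3.48 ± 0.18 without that library.

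Ugt2b5 (ENSMUSG00000054630) and Ugt2b36 (ENSMUSG00000070704), glucuronosyltransferase genes of chromosome 5, both rose on fructose in duodenum. Ugt2b5 had 23.1, 29.6, 41.9, 27.2 and 35.9 scaled CPM on fructose and 5.13, 7.33, 11, 5.41 and 5.09 on dextrose in duodenum. In liver it had 405, 410.2, 345, 332 and 456 on fructose and 439, 452, 601, 423 and 405 on dextrose, and the diets overlap. Ugt2b36 had 9.15, 10.2, 11.6, 10.1 and 13.1 scaled CPM on fructose and 4.12, 4.46, 6.3, 3.11 and 4.06 on dextrose in duodenum, and 367 to 453 on fructose and 394 to 522 on dextrose in liver. For both, every duodenum fructose library lay above every duodenum dextrose library. The tissue differences were -2.47 ± 0.28 (edgeR adjusted p = 6.59e-05) and -1.44 ± 0.20 (adjusted p = 0.000536).

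The promoter windows of both Ugt genes are shown because both genes rose in duodenum, from RefSeq for GRCm38.p6, at chr5:87140291-87140590 and chr5:87092506-87092805, both on the reverse strand. Shifted by 3 bases, 126 of 297 bases are identical (42.4%), and the longest shared run is 24 bases. Capitals mark AGGTCA, a nuclear receptor half-site, which starts 22 bases before the start of Ugt2b5 and 25 before that of Ugt2b36 and was searched on both strands. Of all 32851 windows 16.3% hold these letters. Counted by gene, 5 of the 30 named genes past the threshold that have a window hold them.
Ugt2b5: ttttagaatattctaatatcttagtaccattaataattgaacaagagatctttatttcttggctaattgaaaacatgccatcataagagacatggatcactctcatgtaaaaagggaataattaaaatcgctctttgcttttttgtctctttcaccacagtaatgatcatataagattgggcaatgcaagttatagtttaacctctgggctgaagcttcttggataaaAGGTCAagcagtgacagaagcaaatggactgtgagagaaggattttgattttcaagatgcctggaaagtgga
Ugt2b36: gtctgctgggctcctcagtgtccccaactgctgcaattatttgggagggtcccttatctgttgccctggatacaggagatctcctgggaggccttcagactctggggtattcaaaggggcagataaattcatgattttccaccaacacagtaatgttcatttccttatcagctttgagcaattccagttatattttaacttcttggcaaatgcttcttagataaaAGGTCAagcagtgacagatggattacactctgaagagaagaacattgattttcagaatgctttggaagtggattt

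The other called conjugation genes were glutathione S-transferases. Gsta3 had 3.29 to 6.17 scaled CPM on fructose and 0.451 to 1.61 on dextrose in duodenum and a tissue difference of -2.11 ± 0.33 (edgeR adjusted p = 0.00176). Gstm2, Gstm1 and Gsta4 had differences of -1.12, -1.07 and -1.06 (edgeR adjusted p = 0.0286, 0.0362 and 0.0427). Gstm4 rose in both tissues, by 0.37 ± 0.10 in duodenum and 0.45 ± 0.10 in liver. The Ugt2b, Gsta and Gstm families hold near-identical copies whose reads could have been split by the counting, so the values of single members are uncertain. Of 23 cytochrome P450 genes and their reductase, 1 was lower (0.768% over all genes), the reductase Por. Por had a duodenum gap of 0.50 ± 0.25, a liver gap of -1.05 ± 0.25 and a difference of -1.55 ± 0.35 (edgeR adjusted p = 0.0326). Leaving out any 1 of 12 single libraries gave it an adjusted p of 0.0527 to 0.0703, and leaving out liver dextrose 5 gave 0.0303. The list median was -0.53, and -0.28 without liver dextrose 5. Marc1 (ENSMUSG00000026621), a mitochondrial reductase of N-hydroxylated compounds, had 8.81, 11, 10.9, 10.4 and 7.11 scaled CPM on fructose and 1.01, 1.87, 1.5, 1.71 and 1.65 on dextrose in duodenum, and 519.8 to 585 on fructose and 418 to 666 on dextrose in liver. The groups are apart in duodenum and overlap in liver, and the tissue difference was -2.71 ± 0.22 (edgeR adjusted p = 3.43e-07).

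**Figure D4:**
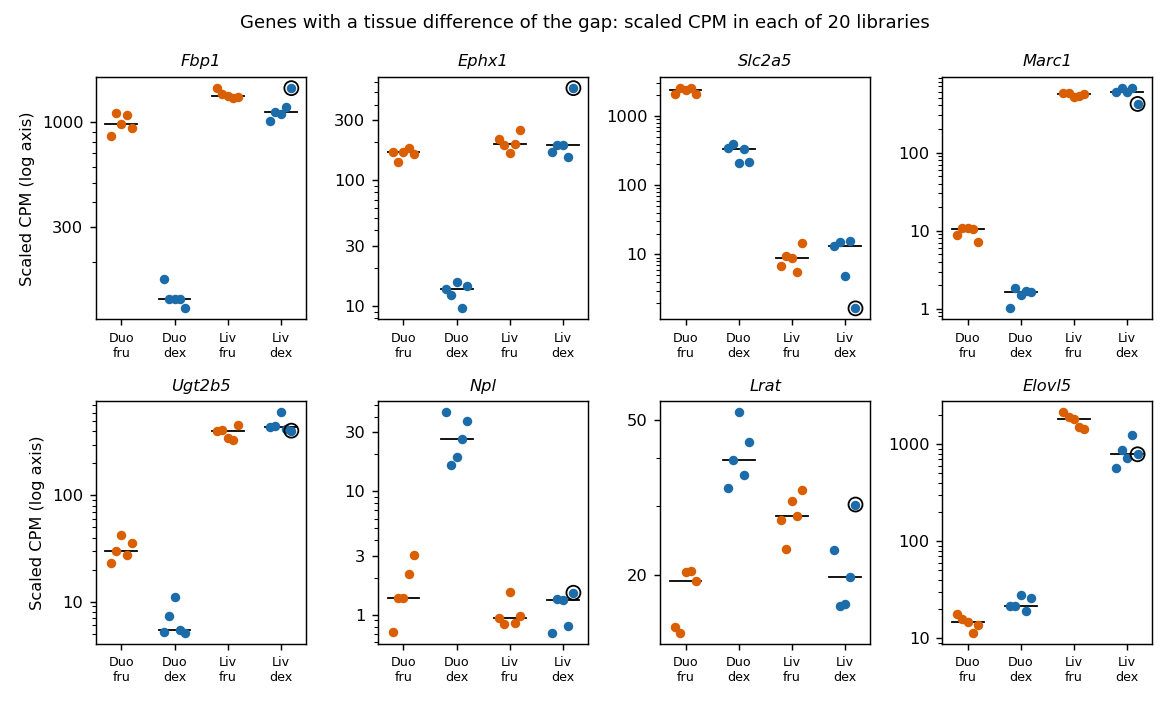
Scaled CPM (log axes) of 8 genes with a called tissue difference in each of the 20 libraries, by tissue (Duo, duodenum; Liv, liver) and diet (fru, fructose; dex, dextrose), with group medians as lines and liver dextrose 5 circled. In Fbp1, Ephx1, Slc2a5, Marc1 and Ugt2b5 the diets are apart in duodenum with fructose above, in Npl and Lrat with fructose below, and in Elovl5 fructose lies above in liver and below in duodenum.

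Among genes of fatty acid oxidation, Acaa1b, Acadl and Ehhadh had a lower liver gap. Of 27 genes of mitochondrial and peroxisomal oxidation and other targets of the receptor PPARA, these 3 had a lower liver gap and 0 a higher one (0.768% and 0.431% over all genes). The median was -0.44, and without liver dextrose 5 there were 5 lower. In duodenum 3 of the 27 rose on fructose (1.8% over all genes), and in liver 0 were called by edgeR with all libraries and 2 fell without liver dextrose 5 (1.8% in that fit). Acaa1b (ENSMUSG00000010651), a peroxisomal thiolase, had 44.5 to 53.9 scaled CPM on fructose and 16.3 to 29.1 on dextrose in duodenum, and 356 to 608 on fructose and 373 to 626 on dextrose in liver. Its tissue difference was -1.26 ± 0.24 (edgeR adjusted p = 0.00809). Acadl, the long-chain acyl-CoA dehydrogenase, had a tissue difference of -0.65 ± 0.13 (adjusted p = 0.0127) with a duodenum gap of 0.52 ± 0.09. Ehhadh, the bifunctional enzyme of peroxisomes, had a difference of -1.41 ± 0.30 (adjusted p = 0.0218), and without liver fructose 3 the adjusted p was 0.0532. Its level was 682 in liver dextrose 5 and 198 to 375 in the other liver dextrose libraries; without that library the difference was -1.12 ± 0.21.

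Among genes of fatty acid synthesis, Elovl5 and Elovl6 rose on fructose in liver and had a higher gap there. Of 20 genes tested these 2 had a higher liver gap and 0 a lower one, against 0.431% higher over all genes. In liver 7 of the 20 rose on fructose (0.99% over all genes), with a list median of 1.06, and in duodenum 2 rose (1.8%), with a median of 0.14. The median tissue difference was 0.70, and 0.41 without liver dextrose 5, where both were still called. The list shares Me1, Elovl6 and others with the list of ChREBP targets. There 1 of 19 genes, Elovl6, was higher (0.431% over all genes) and 1, Gpd1, was lower (0.768%), and without liver dextrose 5 there were 1 and 3 (0.74% and 1.69%). Of the 19, 8 rose in liver (0.99%) and 6 in duodenum (1.8%).

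Elovl5 (ENSMUSG00000032349), the elongase of polyunsaturated fatty acids, had 2116, 1912, 1796, 1502 and 1414 scaled CPM on fructose and 573, 862, 724, 1247 and 785 on dextrose in liver. In duodenum it had 17.6, 15.7, 14.6, 11.4 and 13.6 on fructose and 21.6, 21.3, 28.2, 19.3 and 25.7 on dextrose. Fructose lay above dextrose in every liver library and below it in every duodenum library. The liver gap was 1.06 ± 0.18 (edgeR adjusted p = 0.00447), the duodenum gap -0.67 ± 0.18 (adjusted p = 0.0511) and the tissue difference 1.73 ± 0.25 (adjusted p = 0.00101). Elovl6 (ENSMUSG00000041220), which elongates saturated fatty acids such as palmitate, had 809, 632, 547, 434 and 219 scaled CPM on fructose and 103, 137, 165, 253 and 76.9 on dextrose in liver, where 1 fructose library falls within the dextrose range. In duodenum it had 118 to 182 on fructose and 121 to 148 on dextrose. Its tissue difference was 1.84 ± 0.41 (edgeR adjusted p = 0.0285), and the adjusted p was 0.0525 to 0.0613 on leaving out any 1 of 9 single libraries and 0.0266 without liver dextrose 5.

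The promoter window of Elovl5, chosen because its estimated gaps had opposite signs in the tissues, is given by RefSeq for GRCm38.p6 at chr9:77917115-77917414 on the forward strand. Capitals mark CACGTG, the E-box hexamer, which reads the same on both strands and starts 161 bases before the start. It is found in 7.15% of the 32851 windows. Counted by gene, 5 of the 30 named genes past the threshold that have a window hold it.
Elovl5: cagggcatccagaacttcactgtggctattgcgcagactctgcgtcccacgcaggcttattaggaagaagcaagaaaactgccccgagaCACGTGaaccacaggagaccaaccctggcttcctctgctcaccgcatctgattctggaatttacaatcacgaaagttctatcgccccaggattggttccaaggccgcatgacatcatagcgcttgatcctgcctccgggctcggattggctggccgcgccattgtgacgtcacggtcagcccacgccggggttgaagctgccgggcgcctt

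The enzymes of the main path of fatty acid synthesis were not called, with wide intervals. Acly (ENSMUSG00000020917), ATP citrate lyase, had 2214, 2041, 1366, 648 and 446 scaled CPM on fructose and 352, 314, 396, 540 and 228 on dextrose in liver, and 26.4 to 54.4 on fructose and 35.4 to 44.6 on dextrose in duodenum. The liver groups overlap, and the liver gap was 1.88 ± 0.35 (edgeR adjusted p = 0.0108). Its tissue difference of 1.88 ± 0.48 had an edgeR adjusted p of 0.0659; it was 0.00971 to 0.0491 on leaving out liver fructose 4, liver fructose 5 or liver dextrose 4. Acaca, acetyl-CoA carboxylase, rose in both tissues, by 1.52 ± 0.35 in liver and 1.61 ± 0.37 in duodenum, with a difference of -0.09 ± 0.49 whose sign turned without single libraries. Fasn, fatty acid synthase, had a difference of 0.61 ± 0.67 and Scd1, stearoyl-CoA desaturase, of 1.08 ± 1.48 (edgeR adjusted p = 0.767 and 0.825), with a 95% interval for Scd1 of -2.02 to 4.18. In duodenum Scd1 ranged from 5.04 to 173 scaled CPM on fructose and from 0.446 to 122 on dextrose. Pnpla3, a lipase of lipid droplets, had 7.78 to 73 scaled CPM on fructose and 0.402 to 8.1 on dextrose in liver, the lowest being liver dextrose 5, and a tissue difference of 2.39 ± 1.27 (adjusted p = 0.453). Pklr, the liver type of pyruvate kinase, had a difference of 0.51 ± 0.51 (adjusted p = 0.739).

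Among transcription factors and their regulators 1 of 15 genes was higher (0.431% over all genes) and 0 lower. It was Insig2 (ENSMUSG00000003721), a protein of the endoplasmic reticulum that retains the SREBP complex, with 524, 499, 572, 515 and 521 scaled CPM on fructose and 270, 306, 315, 302 and 366 on dextrose in liver. In duodenum it had 36.9 to 51 on fructose and 39.2 to 53.9 on dextrose. The diets were apart in liver and overlapped in duodenum, and the tissue difference was 0.72 ± 0.15 (edgeR adjusted p = 0.0183). Srebf1 had 169, 174, 189.7, 189 and 164 scaled CPM on fructose and 318, 409, 188, 406 and 123 on dextrose in liver, and a tissue difference of -0.79 ± 0.32 (adjusted p = 0.295); without liver dextrose 5 this was -1.02 ± 0.23 (adjusted p = 0.0197). Mlxipl had a difference of -0.12 ± 0.32 (adjusted p = 0.938). Of 21 genes of cholesterol synthesis 0 were called by edgeR with all libraries, and 0 without liver dextrose 5.

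Other genes with a higher liver gap were lower on fructose in duodenum. Npl (ENSMUSG00000042684), the lyase that breaks down sialic acid, had 0.726, 1.36, 1.36, 2.13 and 3.03 scaled CPM on fructose and 43.5, 16.4, 19.1, 26.3 and 37.5 on dextrose in duodenum. Liver levels were 0.944, 0.841, 1.53, 0.85 and 0.981 on fructose and 0.715, 1.35, 1.31, 0.814 and 1.51 on dextrose, which overlap. The duodenum gap was -4.06 ± 0.33 and the tissue difference 3.91 ± 0.51 (edgeR adjusted p = 0.000353), the largest positive one among genes with at least 1 CPM in both tissues, although the liver mean is close to that limit. Enpep (ENSMUSG00000028024), a brush border aminopeptidase, had 218, 258, 207, 336 and 402 scaled CPM on fructose and 618, 742, 495, 519 and 486 on dextrose in duodenum, and 153, 110.1, 87.8, 104 and 88.2 on fructose and 60.7, 75.3, 81.2, 86.4 and 46.9 on dextrose in liver. Fructose lay below dextrose throughout in duodenum and above it in liver, and the difference was 1.64 ± 0.29 (edgeR adjusted p = 0.00429). It was the 1 called gene of 15 brush border enzymes (0.431% higher over all genes), of which Enpep, Anpep and Ace fell on fructose in duodenum, 3 of 15 (0.957%). Krba1, with 2.15 to 2.87 scaled CPM on fructose and 5.4 to 11.9 on dextrose in duodenum, had a tissue difference of 1.70 ± 0.30 (edgeR adjusted p = 0.00429).

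In retinoid metabolism 1 of 18 genes was higher and 1 lower (0.431% and 0.768% over all genes), and without liver dextrose 5 there were 1 and 3. Lrat (ENSMUSG00000028003), which esterifies retinol for storage, had 14.8, 14.3, 20.4, 20.5 and 19.3 scaled CPM on fructose and 33.4, 39.5, 52.1, 36.2 and 43.8 on dextrose in duodenum, and 27.7, 23.4, 31, 28.4 and 33.1 on fructose and 23.2, 16.7, 16.9, 19.7 and 30.3 on dextrose in liver. It was lower on fructose in all duodenum libraries, while the liver groups overlap through liver dextrose 5. The tissue difference was 1.62 ± 0.23 (edgeR adjusted p = 0.000756), and the liver gap without that library was 0.57 (adjusted p = 0.0329). Lrat is also on the stellate and fibroblast marker list, whose sum in duodenum was 71.9 to 228 CPM with fructose and 128 to 325 with dextrose; the part of this in the result was not tested. Aldh1a1 (ENSMUSG00000053279), which oxidises retinal to retinoic acid, went the other way, with 182, 221, 221, 171 and 255 scaled CPM on fructose and 56.6, 71.7, 128, 56.8 and 51.9 on dextrose in duodenum and 423 to 533 on fructose and 442 to 520.3 on dextrose in liver. Its tissue difference was -1.49 ± 0.26 (edgeR adjusted p = 0.00435).

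In liver Pdzk1ip1 and Sgsm1 rose on fructose. Pdzk1ip1 (ENSMUSG00000028716), a small membrane protein that binds PDZ domains, had 28, 24.6, 24.9, 14.5 and 15.4 scaled CPM on fructose and 7.86, 8.88, 5.33, 11.3 and 2.61 on dextrose in liver, with no overlap, and 1.98 to 2.91 on fructose and 2.01 to 4.96 on dextrose in duodenum. Its tissue difference was 2.05 ± 0.43 (edgeR adjusted p = 0.0183). Sgsm1 had 4.71 to 11.7 scaled CPM on fructose and 1.77 to 3.32 on dextrose in liver and a difference of 1.78 ± 0.41 (adjusted p = 0.0323), which was 0.0549 to 0.0755 on leaving out any 1 of 10 single libraries and 0.0307 without liver dextrose 5.

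In 4 genes the gap of the fit on all 20 libraries was called in both tissues with opposite signs, Bhlhe40, Gde1, Stat5b and Reg3a. Gde1 and Stat5b were outside the rule for named genes and are named after their values were seen. Bhlhe40 (ENSMUSG00000030103), a transcriptional repressor that acts in the circadian clock, had 102, 166, 109, 121 and 108 scaled CPM on fructose and 64.6, 57.5, 70.9, 59.6 and 75.8 on dextrose in duodenum. The liver libraries had 41.2, 59.8, 60.6, 67.2 and 63.5 on fructose and 142, 121, 86.9, 135 and 78.1 on dextrose. Every fructose library was above every dextrose library in duodenum and below it in liver. It rose by 0.88 ± 0.17 in duodenum, its liver gap was -0.94 ± 0.17, and the tissue difference was -1.82 ± 0.24 (edgeR adjusted p = 0.000366). Gde1, a glycerophosphodiester phosphodiesterase, had gaps of 0.46 ± 0.09 in duodenum and -0.38 ± 0.10 in liver. Stat5b, a transcription factor downstream of growth hormone, had gaps of -0.38 ± 0.09 and 0.43 ± 0.09.

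Bhlhe40 was the 1 called gene of 19 core clock genes (0.768% lower over all genes). With all libraries 1 clock gene rose and 2 fell in liver on fructose (0.99% and 0.472% over all genes), and 1 rose in duodenum (1.8%). Without liver dextrose 5, 3 rose and 5 fell in liver (1.75% and 1.8% in that fit), and Npas2 had the higher liver gap, at 3.09 ± 0.48 (edgeR adjusted p = 0.00147, against 0.278 with all libraries). The hour of tissue collection is not in the labels.

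The estimated gaps of Wee1 and Krt23 had the same signs as those of Bhlhe40, with the gap called in liver only with all 20 libraries. Wee1 (ENSMUSG00000031016), a kinase that holds back entry into mitosis, had 13.6, 15.6, 16, 15.4 and 14.6 scaled CPM on fructose and 5.13, 7.05, 10.8, 7.13 and 9.2 on dextrose in duodenum. In liver the levels were 2.03, 1.38, 1.26, 1.08 and 1.89 on fructose and 4, 7.81, 1.68, 10.6 and 5.52 on dextrose, where 1 dextrose library lies within the fructose range. The gaps were 0.94 ± 0.30 in duodenum and -1.95 ± 0.34 in liver, and the tissue difference was -2.88 ± 0.46 (edgeR adjusted p = 0.00218), or -2.94 ± 0.47 without liver dextrose 5, the library high in cell cycle markers. Krt23 (ENSMUSG00000006777), a keratin, had 9.2 to 13.8 scaled CPM on fructose and 4.63 to 7.97 on dextrose in duodenum, and 1.6 to 5.33 on fructose and 4.53 to 12.5 on dextrose in liver. Its tissue difference was -2.43 ± 0.40 (edgeR adjusted p = 0.0029), and -2.23 ± 0.37 without liver dextrose 5 (adjusted p = 0.00154). In that fit the gap of Krt23 was called in both tissues. It was 0.96 ± 0.24 in duodenum (edgeR adjusted p = 0.0213) and -1.27 ± 0.28 in liver (adjusted p = 0.0125).

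Of 20 genes of the urea cycle and amino acid breakdown 1 was lower, and of 16 genes of serine, glycine and one-carbon metabolism 1 was lower (0.768% over all genes). Each list had 2 lower when liver dextrose 5 was left out (1.69% in that fit). Gls2, a glutaminase, had 0.549 to 3.29 scaled CPM on fructose and 0.496 to 0.836 on dextrose in duodenum, which overlap, and a difference of -1.81 ± 0.38 (edgeR adjusted p = 0.017). Cth (ENSMUSG00000028179), cystathionine gamma-lyase, had 84.3, 96.5, 99.2, 90.7 and 84.1 scaled CPM on fructose and 47.6, 48.1, 58.2, 42.4 and 47.3 on dextrose in duodenum, and 195, 217, 228, 275 and 296 on fructose and 300.5, 282, 305, 234 and 630 on dextrose in liver, the highest being liver dextrose 5. Its difference was -1.43 ± 0.28 (edgeR adjusted p = 0.00973), and -1.15 ± 0.16 without that library. In transport, Slc16a3, a lactate exporter, had 198 to 246 scaled CPM on fructose and 105 to 143 on dextrose in duodenum and was under 1 CPM on average in liver. Its difference was -1.78 ± 0.38 (edgeR adjusted p = 0.0187). In liver it had 38 counts on fructose and 77 on dextrose, 39 of them in liver dextrose 5. Without that library the difference was -1.27 ± 0.29 (edgeR adjusted p = 0.0192). Baat, which conjugates bile acids, had a difference of 0.93 ± 0.20 (adjusted p = 0.0193) that rests on 8 to 13 counts per duodenum fructose library and 15 to 23 per duodenum dextrose library, and without duodenum dextrose 3 the adjusted p was 0.0919.

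Several of the largest differences belonged to genes near absence in 1 group, where the fitted size depends on the prior count. Srd5a2, a steroid reductase, had 77 counts in the 5 duodenum fructose libraries and 2 counts in the 5 duodenum dextrose libraries, 4 of which were at 0. In liver it had 86 counts on fructose and 190 on dextrose. The fitted difference was -5.87 ± 0.70 (edgeR adjusted p = 0.00013). Reg3a (ENSMUSG00000079516), an antimicrobial lectin of the gut, had 309, 326, 273, 319 and 345 scaled CPM on fructose and 176, 222, 229, 208 and 193 on dextrose in duodenum, with no overlap. In liver it had 0 counts in all 5 fructose libraries and 1 to 9 counts in each dextrose library, 18 in all. Of those 18 counts, 9 were in liver dextrose 5. Against a floor of 3 counts over the group, or 0.0389 CPM, the liver dextrose level of 0.221 CPM was 5.7-fold higher, with the sampling error of so few counts not included. The fitted tissue difference was -5.62 ± 0.82 (edgeR adjusted p = 0.00218), and -5.12 ± 0.85 without liver dextrose 5 (adjusted p = 0.00271).

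Sprr1a, a small proline-rich protein, had 296 to 358 counts per duodenum fructose library and 11 to 55 on dextrose. In liver it had 6 counts on fructose and 156 on dextrose, and the highest single dextrose library had 148. Its fitted difference of -7.39 (SE 1.5, edgeR adjusted p = 0.0173) was -3.89 ± 1.18 without liver dextrose 5 (adjusted p = 0.0943). Mt2, a metallothionein, had 57.5, 17.8, 25.2, 12.6 and 62.5 scaled CPM on fructose and 9.44, 6.28, 3.62, 7.53 and 15.8 on dextrose in duodenum, and 0.944, 2.14, 2.8, 3.09 and 5.39 on fructose and 4.29, 10.2, 1.68, 7.39 and 109 on dextrose in liver, the value of 109 being liver dextrose 5. Its difference was -5.25 ± 1.25 (edgeR adjusted p = 0.0457), and the adjusted p was 0.0515 to 0.0982 on leaving out any 1 of 17 single libraries. Without liver dextrose 5 the difference was -3.11 ± 0.82. Olig1, a transcription factor, had 24 counts on fructose and 2 on dextrose in duodenum, and its call was lost on leaving out any 1 of 14 single libraries (edgeR adjusted p = 0.0528 to 0.102), while without liver dextrose 5 it was 0.0227.

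With the liver gap higher, Atp2b2, a calcium pump of the plasma membrane, had 1292 counts on fructose and 251 on dextrose in liver, 146 of them in the highest dextrose library, and 22 and 30 in duodenum. Its difference was 3.09 ± 0.70 (edgeR adjusted p = 0.0306), and the adjusted p was 0.0523 to 0.0766 without any 1 of 10 single libraries. Without liver dextrose 5, which held those 146 counts, the difference was 3.74 ± 0.49 (adjusted p = 0.000131). Plch2, a phospholipase C, had 42 counts on fructose and 6 on dextrose in liver and a difference of 3.04 ± 0.62 (adjusted p = 0.0144). Gata5, a transcription factor, had 25 and 4 counts in liver and 5698 and 6493 in duodenum, with a difference of 2.81 ± 0.62 (adjusted p = 0.0241). Leaving out liver fructose 1, liver fructose 4 or liver dextrose 2 gave Gata5 an adjusted p of 0.053 to 0.0603. The differences of Plch2 and Gata5 without liver dextrose 5 were 2.60 ± 0.62 and 2.40 ± 0.61 (adjusted p = 0.0249 and 0.0366). The summed enterocyte markers were also higher in liver on fructose than in the other 4 liver dextrose libraries, mostly through Apoa4, and their part in these results was not tested. Clec4f, a lectin of Kupffer cells, had 9363 and 9964 counts in liver and 3 and 23 in duodenum, so its difference of 2.77 ± 0.62 (edgeR adjusted p = 0.0287) rests on the low duodenum counts. Its adjusted p was 0.0528 to 0.0716 without any 1 of 6 single duodenum libraries and 0.0147 without liver dextrose 5.

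Gene groups of immunity, stress and energy metabolism gave 0 calls of the tissue difference by edgeR with all libraries. They were interferon response (23 genes tested), class II antigen presentation (8), the unfolded protein response (17), insulin signalling and hepatokines (16), the mitochondrial respiratory chain (20), purine breakdown (13), glycogen (16), the pentose phosphate pathway (8), the NRF2 antioxidant genes (16), peptide and amino acid transport (15), and lipid absorption and lipoprotein assembly (22). With liver dextrose 5 left out, Pgd, the second oxidative enzyme of the pentose phosphate pathway and also on the NRF2 list, had the higher liver gap, 1.07 ± 0.25 (edgeR adjusted p = 0.0249). In that fit the glycogen list had 1 gene lower (Ppp1r3g), peptide and amino acid transport 1 higher (Slc43a2) and 1 lower (Slc3a1), and lipid absorption and lipoprotein assembly 1 higher (Apoa4) and 1 lower (Fabp1), against 0.74% higher and 1.69% lower over all genes. The differences were -2.29 ± 0.53 for Ppp1r3g, 0.80 ± 0.21 for Slc43a2, -0.82 ± 0.21 for Slc3a1, 1.74 ± 0.28 for Apoa4 and -0.80 ± 0.17 for Fabp1 (edgeR adjusted p = 0.0201, 0.0485, 0.0356, 0.00131 and 0.0139). The other 6 groups had 0 calls in that fit too. In liver Pgd rose on fructose by 1.14 ± 0.21, G6pdx by 1.54 ± 0.30 and Tkt by 0.57 ± 0.12, while their duodenum gaps were 0.23 ± 0.20, 0.30 ± 0.28 and 0.23 ± 0.12. The median tissue difference of the cell cycle markers was -2.20, with 0 called, and 0.02 without liver dextrose 5. Among all marker lists the called members were Clec4f, Lrat and Cidec, a protein of lipid droplets on the adipocyte list. Cidec had 2.73 to 4.76 scaled CPM on fructose and 4.93 to 27.3 on dextrose in liver and a difference of -2.17 ± 0.48 (edgeR adjusted p = 0.0287). The adipocyte markers summed to 107 CPM in liver dextrose 3 and 76.7 in liver dextrose 5, against 14.3 to 26.5 in the other liver libraries; their part in the Cidec result was not tested.

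**Figure D5:**
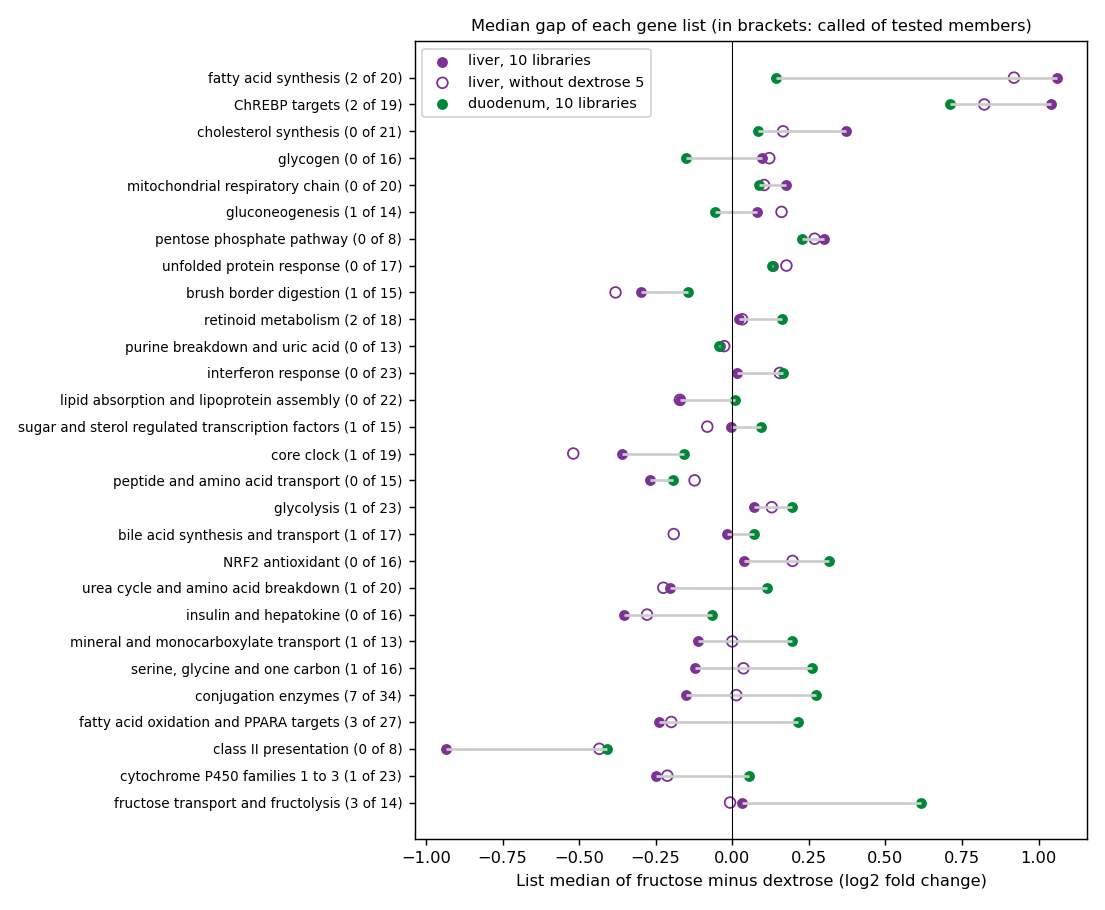
Median fructose-dextrose gap (log2 fold change) over the tested genes of each of 28 lists, in liver (filled purple), in liver without liver dextrose 5 (open purple) and in duodenum (green), ordered by the median tissue difference, with the called and tested members in brackets. With all 20 libraries fatty acid synthesis has the largest median tissue difference, with medians of 1.06 in liver and 0.14 in duodenum, and fructose transport and fructolysis the smallest, at -0.54 and close to -0.53 for cytochrome P450; without liver dextrose 5 the smallest is bile acid synthesis and transport (-0.43), and by DESeq2 class II presentation (-0.51).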

How the data were processed

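Poly-A RNA of duodenum and liver was sequenced with an unstranded kit (NEBNext Ultra), per the labels' protocols. Bowtie2 2.2.3, TopHat2 2.0.12, HTSeq 0.6.1 and DESeq 1.18.0 are listed as tools, per the submitters' processing notes. Build, annotation and strand setting are not given in the sources used here, and overlapping and antisense genes may share reads. The authors deposited raw read counts and FPKM for 47069 genes. The deposited FPKM equal counts over 1 length per gene and the library total, within a tolerance of 0.001 for 100% of values with at least 20 counts. The table gave the symbol of 22528 genes and a reference list of gene names that of 24237; 304 had none.

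The counts of 20 libraries in 4 groups were fitted in R 4.3.3 with edgeR 4.0.16 (filterByExpr by group, TMM, robust quasi-likelihood F test, two-sided) without a replicate block. Benjamini-Hochberg adjustment ran over all 14843 genes tested, with a threshold of 0.05. The gaps and their difference came from the same fit; SE is the log2 fold change over the square root of F. Replicates of every group differed by more than counting allows (lowest chi-square 7.9 per degree of freedom).

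Named genes were the 8 largest differences per direction with a mean of at least 1 CPM in both tissues, the 4 largest per direction below that in 1 tissue, 14 fixed genes, and up to 3 called members of each of 28 lists, predicted genes and pseudogenes left out. A list member that is not reported here by itself is still counted in its lists. Other genes named were list members or are said to be chosen after their values were seen. The members, lists and tests were chosen with earlier results of these data known. On simulated counts for 14843 genes the fit recovered 40% of 2-fold and 72% of 4-fold changes in the tissue difference, with 4 false among 116 calls. The simulation drew independent libraries from the fitted spread, set every change in liver and held no library that stood apart. It therefore does not give the error of the calls in the data. Alternatives were other scalings and filters, DESeq2 1.42.0, limma 3.58.1 on log2(FPKM + 1) and log2(FPKM + 0.1), voom with sample weights, a minimum log2 fold change of 1, all 30 libraries, a replicate block, and leaving out libraries.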

Additional observations from a re-analysis of the deposited data

Results flagged for a closer look

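The fructose-dextrose gap differed between liver and duodenum, by the test of the difference itself, for 178 genes.

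Among the 51 named genes, 20 of 204 groups of 5 libraries (9.8%) held a library far from the other 4 on the log2 CPM scale by Dixon's criterion, which chance meets in about 1 in 20 groups. In 9 of them it was liver dextrose 5. That library had 7.33 scaled CPM of Atp2b2 against 1.64 to 2.27 in the other liver dextrose libraries, 541 of Ephx1 against 154 to 191, and 630 of Cth against 234 to 305. It was low in the other 6 genes. It had 418 scaled CPM of Marc1 against 589 to 666, 238 of Khk against 651 to 757, 0.402 of Pnpla3 against 4.12 to 8.1, 137 of Mlxipl against 368 to 490, 1570 of Aldh2 against 2410 to 2770, and 202 of Gpd1 against 327 to 365.

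The other 11 were spread over 9 libraries. In liver, Npl was 1.53 in fructose 3 against 0.841 to 0.981, Atp2b2 10.8 in fructose 5 against 19.5 to 22.8, Bhlhe40 41.3 in fructose 1 against 59.8 to 67.2, and Ugt2b5 601 in dextrose 3 against 405 to 452. In duodenum on fructose, Elovl6 was 182 in library 3 against 118 to 133, Krt23 9.2 in library 1 against 12.4 to 13.8, Aldh2 586 in library 1 against 663 to 686, and Me1 22 in library 4 against 35.3 to 37.4. In duodenum on dextrose, Atp2b2 and Srd5a2 were 0.0902 in library 4, against 0.334 to 0.441 and 0 in the others, and Srebf1 was 121 in library 3 against 81.2 to 87.8.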

How the results depend on the processing

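The count of 178 tissue differences was 363 by DESeq2, 307 by limma on log2(FPKM + 1), 838 by voom with sample quality weights (which gave liver dextrose 5 a weight of 0.154), 11 with a minimum absolute log2 fold change of 1, 101 with all 30 libraries, and 303 without liver dextrose 5 and duodenum fructose 3. Leaving out each library in turn gave 116 to 364. It was 134 to 212 with no low-count filter, a filter in both tissues, RLE, upper-quartile or within-tissue TMM factors, and log2(FPKM + 0.1). The liver count of 217 was 135 with no low-count filter, 546 by DESeq2 (276 higher, 270 lower), 1741 by voom, 1 with the minimum fold change, 113 with all libraries, 505 without both libraries, and 71 to 532 leaving out each. The duodenum count of 409 was 650 by DESeq2, 682 on log2(FPKM + 1), 1460 by voom, 27 with the minimum fold change, and 279 to 732 leaving out each. By log2(FPKM + 1) the split turned from 267 higher and 142 lower to 297 and 385 in duodenum, and from 147 and 70 to 159 and 165 in liver; by log2(FPKM + 0.1) it was 224 and 233, and 113 and 101. The cause of these changes was not tested.

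Of 39 named genes past the threshold, 32 lost the call in at least 1 setting and 0 turned sign. The other 7 (Ephx1, Fbp1, Marc1, Npl, Reg3a, Srd5a2 and Ugt2b5) were past it in every setting that tested them. Reg3a and Srd5a2 had a mean under 1 CPM in 1 tissue and were not tested with the filter in both tissues. The settings include the minimum absolute log2 fold change of 1, with 11 calls over all genes. Genes with a smaller difference, such as Acadl (-0.65) and Insig2 (0.72), could not pass it. The sign turned for 2 genes that were not called. The difference of Acaca was 0.18 on log2(FPKM + 1) and ran from -0.30 to 0.22 on leaving out each library, above 0 without any of 5 (0.02, 0.04, 0.03, 0.10 and 0.22), and that of Scd1 was -0.19 by voom. No scaling moved the median of all genes by over 0.1.

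The labels give groups the same replicate numbers but not that a number marks a mouse. Over 10 same-numbered pairs the correlation of deviations from group means was -0.03 to 0.21, over 0.1 in 3. Of 10 duodenum libraries 5 matched their own number best, each among the 5 liver libraries of its diet. This check cannot settle whether a number marks a mouse. The main fit treated all libraries as unpaired, and a shared mouse would not be accounted for in its p-values. With a replicate block of 10 diet and number pairs the tissue difference was called for 129 genes. The gap of each tissue was refitted apart, with the replicate number as block across the diets. Those fits, which do not pair liver with duodenum, gave 10 genes in liver and 433 in duodenum. Depth limits the values of genes under 1 CPM.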
